A study of Mus musculus with 3 samples.

Results

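Notch signaling passes between touching cells. A ligand of the Jagged or Delta-like family on 1 cell binds a Notch receptor on its neighbor, the receptor is cut, and its freed inner part enters the nucleus, where it joins the DNA-binding protein RBPJ and raises transcription of repressors of the Hes and Hey families. The pathway is best known in blood vessels, where DLL4 and NOTCH1 act in endothelial cells and JAG1 and NOTCH3 act in the mural cells around them, and in the resting stem cells of muscle.

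To place this pathway in the tendon, 10 of the 32285 genes counted were taken by symbol, and all 10 were found. They were the ligands *Jag1* (ENSMUSG00000027276), *Jag2* (ENSMUSG00000002799), *Dll1* (ENSMUSG00000014773) and *Dll4* (ENSMUSG00000027314), the receptors *Notch1* (ENSMUSG00000026923), *Notch2* (ENSMUSG00000027878) and *Notch3* (ENSMUSG00000038146), and the targets *Hes1* (ENSMUSG00000022528), *Hey1* (ENSMUSG00000040289) and *Heyl* (ENSMUSG00000032744). Single-cell RNA sequencing (scRNAseq) of the flexor digitorum longus (FDL) tendon gave 1 library for each of 3 groups, each from 16 pooled tendons of male and female mice. The 6 M WT library came from Scx-Cre-; DTR F/+ littermates and the 6 M DTR library from Scx-Cre+; DTR F/+ mice, in which Cre driven by the tendon transcription factor Scleraxis turns on the diphtheria toxin receptor in Scleraxis-lineage cells, and both had received 5 toxin injections at 3 months of age. The 21 M B6 library came from 21-month-old C57BL/6J mice that received no injections. Harvest was at 6 months by the methods, although the labels of both younger groups state an age of 3 months. Tendons were digested for 120 min in 6 M WT and for 90 min in the other libraries. Genotype and digestion time thus cannot be told apart between 6 M DTR and 6 M WT. Between 21 M B6 and 6 M WT, age, strain, genotype, injection and digestion time cannot be told apart.

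After filtering, 8357 cells of 6 M WT, 6554 of 6 M DTR and 4798 of 21 M B6 remained, with a median of 12328 to 13008 unique molecular identifiers (UMIs) per cell. Before it, 27.6% of barcodes of 6 M WT, 43.1% of 6 M DTR and 56.5% of 21 M B6 exceeded the limit of 10% mitochondrial UMIs. Between 13 and 15 cell barcodes were shared by each pair of libraries. Clusters were named from marker genes and are called tenocyte-, epitenon-, endothelial-, mural-, macrophage-, T cell-, nerve- and muscle-like below. The tenocyte-like cluster had 9 of 10 of its markers raised and the epitenon-like cluster 9 of 9. From 6 M WT through 6 M DTR to 21 M B6, they held 5405, 2653 and 1030 tenocyte-like cells and 1645, 1781 and 2730 epitenon-like cells. Endothelial-like cells numbered 166, 153 and 183, and mural-like cells 148, 202 and 45. The mural-like cells split into a pericyte-like part (81, 152 and 13 cells) and a smooth muscle-like part (67, 50 and 32 cells). In the pericyte-like part 5 pericyte but also 5 smooth muscle markers were raised, and in the other part 3 and 5. The pericyte-like part was named for *Kcnj8* and *Abcc9* among its 10 leading genes. The muscle-like cluster joined satellite cell and muscle fiber markers. A further 20, 19 and 27 cells in which markers of both vascular classes were raised were left unnamed, which is 0.24%, 0.29% and 0.56% of each library.

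Levels are given in CPM, the UMIs of a gene over the UMIs of all genes, scaled to a fixed total, with UMIs summed over the cells of a class in a library, and sets of 3 values below run from 6 M WT through 6 M DTR to 21 M B6 unless a library is named, and pairs of ratios give 6 M DTR first. With 1 library per group no difference between libraries was tested, and all intervals are exact 95% intervals for counting error only. Shares of cells with at least 1 UMI were taken after each cell was thinned to 5000 UMIs, and cells below that depth were left out of the shares. Because capture can differ between genes, the size of a level is compared only within a gene, and 10 CPM is a fixed mark for all genes.

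**Figure D1:**
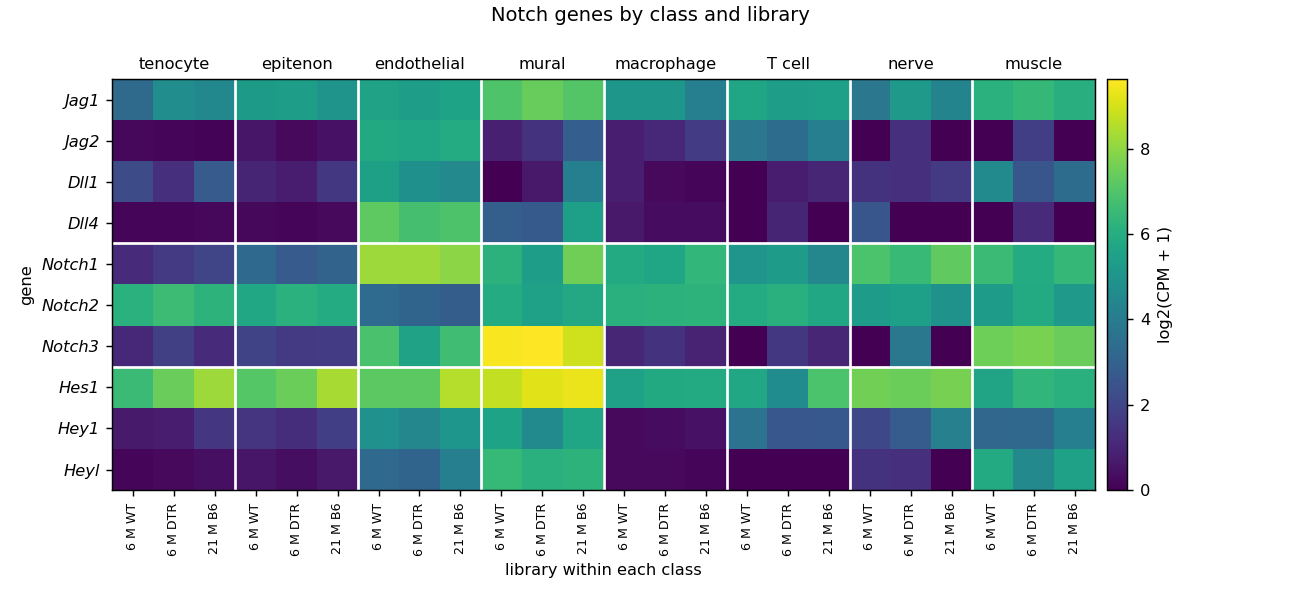
Levels of the 10 Notch genes as log2(CPM + 1), with ligands, receptors and targets in rows and the 3 libraries of each of 8 classes in columns. *Notch3* is brightest in mural-like cells, at 735, 794 and 486 CPM, and *Dll4* in endothelial-like cells, at 151, 109 and 122 CPM, while *Notch2* is spread over every class but the endothelial-like one.

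UMIs of *Jag1*, a ligand of Notch receptors, were counted in every class, which in droplet data can include free RNA from other cells. The summed level of 10 tenocyte markers was 3606, 2444 and 122 CPM in nerve-like, 1379, 1182 and 66.8 CPM in T cell-like and 931, 523 and 136 CPM in macrophage-like cells, against 19524, 22853 and 18041 CPM in tenocyte-like cells. In the vascular cells left unnamed this sum was 9691, 9579 and 4513 CPM. Their endothelial markers summed to 1329, 1276 and 1800 CPM and their mural markers to 5355, 4922 and 3825 CPM. The part of free RNA from other cells in the members' values was not tested. *Jag1* was highest in mural-like cells, at 124, 169 and 133 CPM, and UMIs were found in 44.3%, 52.8% and 37.2% of thinned mural-like cells (56.8%, 66.3% and 53.3% unthinned). Muscle-like cells came next at 70.3, 83.5 and 65.2 CPM, and these first positions did not overlap with each other or with the classes below. T cell-like (51.3, 40.5 and 42.4 CPM), endothelial-like (45.7, 40.4 and 46.9 CPM) and epitenon-like cells (37.5, 41.0 and 31.0 CPM) followed with overlapping ranges. The lowest value of any class and library was that of 6 M WT tenocyte-like cells, at 9.09 CPM.

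*Jag2* and *Dll4* marked the endothelial-like cells. *Jag2* stood at 57.4, 49.3 and 59.2 CPM there, with 13.0, 9.71 and 17.0 CPM in T cell-like cells and at most 0.496 CPM in epitenon-like cells. *Dll4*, the ligand of sprouting and arterial endothelium, stood at 151, 109 and 122 CPM in endothelial-like cells and was found in 37.8%, 34.7% and 36.7% of them (50.0%, 49.0% and 54.1% unthinned). In tenocyte-like cells *Dll4* reached only 0.138, 0.114 and 0.163 CPM and 0.0957%, 0.0392% and 0.206% of thinned cells, at median depths of 12892, 12534 and 11036 UMIs against 8728.5, 9143 and 9930 in endothelial-like cells. Endothelial-like cells held 83.7%, 83.2% and 79.4% of all *Dll4* UMIs of the libraries although they made up 1.99%, 2.33% and 3.81% of the cells.

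*Dll1* was also highest in endothelial-like cells, at 44.0, 27.8 and 22.3 CPM, and the lowest of these values overlapped with the muscle-like cells (22.9, 4.91 and 9.47 CPM). Tenocyte-like cells held it at 3.5999, 1.51 and 5.86 CPM. Because those cells are many, 66.6%, 40.5% and 32.4% of the *Dll1* UMIs of each library lay in them. The 3 tenocyte-like values did not overlap in their intervals, which were 3.18 to 4.06, 1.13 to 1.97 and 4.59 to 7.38 CPM, but only 1.40%, 0.588% and 2.47% of thinned cells had a UMI.

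*Notch1*, the main endothelial receptor, stood at 297, 297 and 251 CPM in endothelial-like cells, where 71.7%, 73.4% and 61.4% of thinned cells had a UMI. Nerve-like cells followed at 118, 91.4 and 154 CPM, and their range overlapped with those of mural-like (71.9, 39.98 and 185 CPM) and muscle-like cells (93.2, 60.1 and 84.2 CPM). Macrophage-like cells stood at 57.6, 49.9 and 81.4 CPM and held the most *Notch1* UMIs of any class, 35.0%, 44.0% and 35.3%. Tenocyte-like cells were the lowest, at 1.20, 2.08 and 3.01 CPM.

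*Notch2* had the opposite layout. Tenocyte-like cells led at 69.8, 97.2 and 75.0 CPM, but their range overlapped with those of macrophage-like (68.7, 72.7 and 74.3 CPM) and epitenon-like cells (54.0, 70.8 and 60.5 CPM). Endothelial-like cells were apart from every other class at 9.38, 7.58 and 6.16 CPM. *Notch2* UMIs were found in 29.1%, 37.6% and 31.6% of thinned tenocyte-like cells and in 5.51%, 4.03% and 2.41% of thinned endothelial-like cells. Of the 3 receptors, *Notch2* was the only one above 10 CPM in tenocyte-like cells in any library. Of the ligands and targets, only *Jag1* and *Hes1* passed 10 CPM there.

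*Notch3*, the mural receptor, stood at 735, 794 and 486 CPM in mural-like cells and was found in 96.7%, 96.3% and 88.4% of those thinned. Both mural parts held it, with 807, 772 and 516 CPM in pericyte-like and 670, 853 and 479 CPM in smooth muscle-like cells. Muscle-like cells came second at 183, 205 and 170 CPM. In tenocyte-like, epitenon-like, macrophage-like and T cell-like cells no value exceeded 2.93 CPM. The related *Notch4*, which is not among the 10, was an endothelial-like gene at 22.3, 20.2 and 27.9 CPM.

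Among the targets, UMIs of *Hes1* were counted in every class, and the highest levels were those of mural-like cells for *Hes1* and *Heyl* and of both vascular classes for *Hey1*. *Hes1*, a repressor induced by Notch and by other signals, was highest in mural-like cells at 429, 583 and 661 CPM. *Hey1* stood at 47.7, 22.5 and 50.5 CPM in mural-like cells and 28.1, 20.8 and 32.2 CPM in endothelial-like cells, and these ranges overlapped. Of all *Hey1* UMIs, 23.98%, 23.1% and 9.38% lay in mural-like, 19.5%, 19.1% and 26.6% in endothelial-like and 17.1%, 20.8% and 37.9% in epitenon-like cells, where its level was at most 2.41 CPM. *Heyl* stood at 85.7, 68.7 and 73.7 CPM in mural-like cells and 58.9, 22.1 and 44.2 CPM in muscle-like cells. In T cell-like cells no *Heyl* UMI was counted, which allows a level of up to 1.95, 0.971 and 3.18 CPM. Within the mural-like cells, *Nrarp*, a target that feeds back on the pathway, was concentrated in the smooth muscle-like part, at 995, 781 and 832 CPM against 64.2, 59.0 and 70.8 CPM in the pericyte-like part.

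Over 24 profiles, 8 classes in 3 libraries, the genes whose log2(CPM + 1) values followed a member most closely were found among genes of at least 20 CPM in some profile. For *Notch3* they were *Pdlim3* (Pearson r = 0.967), *Heyl* (r = 0.966) and *Rbm24* (r = 0.917). *Dll4* was followed by *Rasip1* (r = 0.981), *Tmem252* (r = 0.974) and *Cldn5* (r = 0.972), and *Jag2* by *Gimap4* (r = 0.955), *Icam2* (r = 0.943) and *Gimap5* (r = 0.9396). *Heyl* was followed by *Notch3* (r = 0.966), *Pdlim3* (r = 0.959) and *Rbm24* (r = 0.938). *Jag1* was followed by *Rbm24* (r = 0.855), *Myom1* (r = 0.843) and *Daam1* (r = 0.836), and *Dll1* by *Sncaip* (r = 0.908), *Alpl* (r = 0.884) and *Bend7* (r = 0.865). *Notch1* was followed by *Raly* (r = 0.880), *Plxnd1* (r = 0.871) and *Cdk17* (r = 0.861), and *Notch2* by *Slc41a2* (r = 0.848), *Ttc7* (r = 0.826) and *Mdh1* (r = 0.822). *Hes1* was followed by *Akap12* (r = 0.891), *Sema4c* (r = 0.865) and *Hecw2* (r = 0.856), and *Hey1* by *Mlf1* (r = 0.924), *Plcb4* (r = 0.901) and *Eif4a2* (r = 0.884). The profiles share libraries and depth, so these are descriptions only.

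Among members with an upstream sequence in RefSeq (GRCm38.p6), *Notch3* and *Jag1* had the most alike profiles (r = 0.823), and their 250 bases before the start of transcription are shown. Capitals mark the GC box GGGCGG on either strand.
Jag1, chr2:137116521-137116770, minus strand: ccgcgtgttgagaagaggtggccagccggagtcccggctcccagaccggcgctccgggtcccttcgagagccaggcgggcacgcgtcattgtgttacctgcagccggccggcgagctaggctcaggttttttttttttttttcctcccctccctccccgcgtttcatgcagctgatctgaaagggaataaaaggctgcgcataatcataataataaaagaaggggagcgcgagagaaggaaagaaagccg
Notch3, chr17:32166891-32167140, minus strand: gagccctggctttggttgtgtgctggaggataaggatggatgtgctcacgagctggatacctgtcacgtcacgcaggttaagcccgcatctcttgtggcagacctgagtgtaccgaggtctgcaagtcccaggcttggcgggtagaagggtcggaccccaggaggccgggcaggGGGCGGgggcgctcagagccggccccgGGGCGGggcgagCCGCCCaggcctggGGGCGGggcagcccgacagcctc
The *Notch3* window held 4 GC boxes and the *Jag1* window 0, while 32.7% of 32851 windows of this length held at least 1. The RBPJ core TGGGAA, searched on both strands, was in 0 of the 8 windows of the 7 members matched and in 21.6% of all windows. *Hes1*, *Hey1* and *Heyl* were not matched.

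To compare libraries within a class, ratios of CPM were taken to 6 M WT, which serves as the reference for both other libraries, so their ratios are not independent. In tenocyte-like cells 3 members reached 10 CPM in some library, and *Jag1* and *Hes1* had larger ratios than *Notch2* in both comparisons. *Jag1* stood at 9.09 CPM (8.41 to 9.81), 25.2 CPM (23.6 to 26.9) and 21.7 CPM (19.2 to 24.5). Both the depleted and the aged library were above 6 M WT, and their own intervals overlapped. The ratio was 2.77 (2.50 to 3.07) for 6 M DTR and 2.39 (2.07 to 2.76) for 21 M B6, and the share of thinned cells with a UMI was 3.81%, 9.33% and 8.33% (7.86%, 20.1% and 15.8% unthinned). No class here is known to lack *Jag1*, so no background share could be set. In macrophage-like cells the depleted library had a *Jag1* ratio of 1.01 (0.88 to 1.15), from 33.5 against 33.2 CPM.

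*Hes1* in tenocyte-like cells stood at 94.96 CPM (92.7 to 97.2), 172 CPM (168 to 177) and 301 CPM (292 to 311), with no overlap between libraries. The ratio was 1.81 (1.75 to 1.88) for 6 M DTR and 3.17 (3.05 to 3.30) for 21 M B6. UMIs were found in 24.2%, 38.4% and 43.4% of thinned cells (37.1%, 55.4% and 56.2% unthinned), against 14.4%, 18.0% and 19.9% of macrophage-like cells. *Notch2* stood at 69.8, 97.2 and 75.0 CPM, a ratio of 1.39 (1.33 to 1.46) for 6 M DTR and 1.07 (1.00 to 1.15) for 21 M B6. Past the 2-fold mark, counted among genes of at least 10 CPM in either library compared, were 1 of 3 members in 6 M DTR (*Jag1*), where 3.36% of 7565 genes passed it, and 2 of 3 in 21 M B6 (*Jag1* and *Hes1*), where 5.37% of 7426 genes passed it. *Jag1* lay below 10 CPM in 6 M WT. It was thus counted only through the library where it was higher, and could not have been counted as lower. The members are too few for a share to be set against those of all genes. The study reported tenocyte subpopulations whose shares differed between these groups. The tenocyte-like class was kept whole here, and the part of such a mix in these values was not tested.

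**Figure D2:**
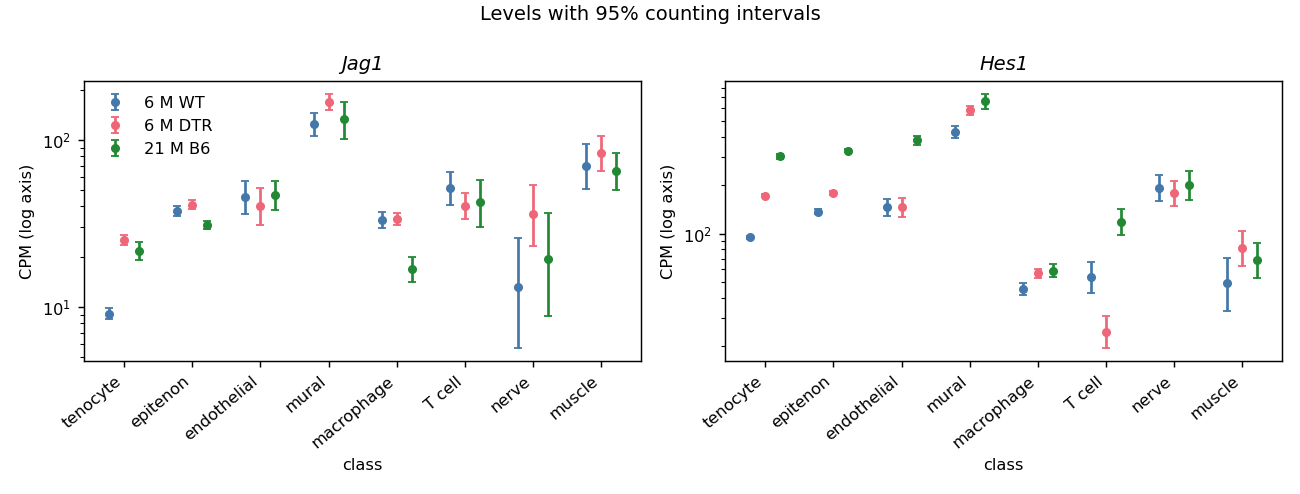
*Jag1* (left) and *Hes1* (right) in CPM on a log axis, by class and library, with exact 95% counting intervals as bars. *Jag1* of 6 M WT tenocyte-like cells lies lowest at 9.09 CPM, and *Hes1* of 21 M B6 lies above both other libraries in tenocyte-, epitenon- and endothelial-like cells, at 301, 327 and 379 CPM.

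Epitenon-like cells shared the *Hes1* difference of the aged library but not that of *Jag1*. *Hes1* stood at 137, 179 and 327 CPM, a ratio of 1.31 (1.25 to 1.37) for 6 M DTR and 2.40 (2.31 to 2.49) for 21 M B6. *Jag1* stood at 37.5, 41.0 and 31.0 CPM, a ratio of 1.09 (1.00 to 1.20) and 0.83 (0.76 to 0.90). The median log2 ratio over all genes of 21 M B6 was -0.28 in these cells. TMM scaling, which raised the log2 ratios there by 0.30, turned that of *Jag1* from -0.27 to 0.03. *Notch2* stood at 54.0, 70.8 and 60.5 CPM, a ratio of 1.31 (1.22 to 1.41) and 1.12 (1.05 to 1.20). Past 2-fold were 0 of 3 members in 6 M DTR, where 1.88% of 7934 genes passed, and 1 of 3 in 21 M B6 (*Hes1*), where 3.77% of 7850 genes passed.

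Macrophage-like cells went another way for *Jag1* in the aged library. *Jag1* stood at 33.2, 33.5 and 16.8 CPM, a ratio of 0.51 (0.41 to 0.62) for 21 M B6. *Notch1* stood at 57.6, 49.9 and 81.4 CPM, a ratio of 0.87 (0.78 to 0.96) and 1.41 (1.26 to 1.58), and *Notch2* at 68.7, 72.7 and 74.3 CPM. *Hes1* stood at 45.3, 56.5 and 58.6 CPM, a ratio of 1.25 (1.12 to 1.40) and 1.30 (1.14 to 1.48). Past 2-fold were 0 of 4 members in each comparison, where 2.26% of 7428 genes passed in 6 M DTR and 6.01% of 7521 genes in 21 M B6.

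**Figure D3:**
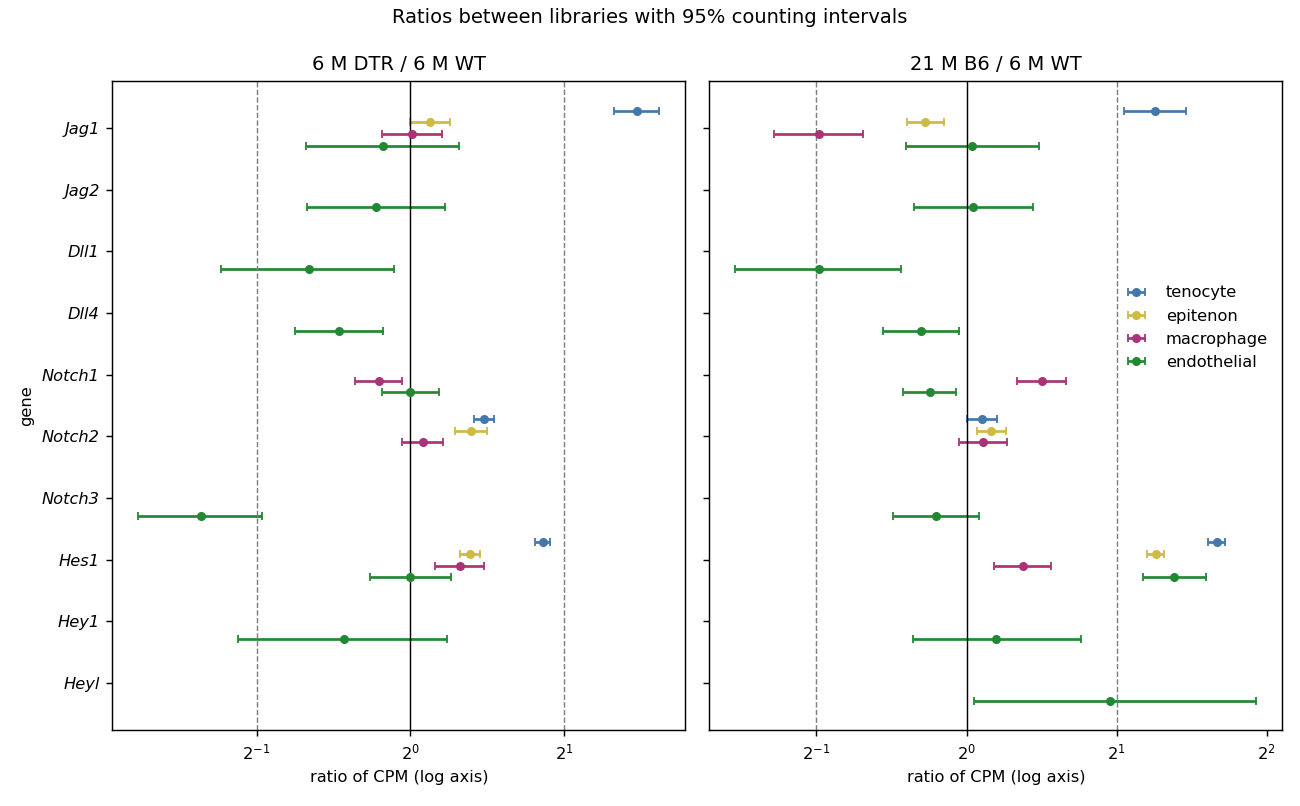
Ratios of CPM to 6 M WT on a log axis for 6 M DTR (left) and 21 M B6 (right), one color per class, with exact 95% counting intervals and dashed lines at 2-fold, for genes of at least 10 CPM in either library. *Jag1* lies right of the 2-fold line in tenocyte-like cells in both panels, at 2.77 and 2.39, and at 0.51 in macrophage-like cells of 21 M B6.

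Immediate early and heat shock genes also differed between the libraries, in the direction of *Hes1* in some classes and not in others. Median mitochondrial shares of tenocyte-like cells were 2.77%, 2.86% and 5.59%, and 73.0%, 43.4% and 52.7% of those with a sex call were called female. Of 16 immediate early genes such as *Fos*, *Egr1* and *Atf3*, which cells switch on within minutes of stimulation, 15 were higher in 6 M DTR tenocyte-like cells than in 6 M WT (2 past 2-fold, median log2 ratio 0.50, against 0.02 over all genes). In 21 M B6, 14 of 16 were higher, with 6 past 2-fold and a median of 0.93 against -0.25 over all genes. Of 8 heat shock genes, 3 were higher in 6 M DTR (median -0.18) and 8 in 21 M B6 (7 past 2-fold, median 1.53). In epitenon-like cells of 21 M B6 the medians were 0.62 for immediate early and 1.61 for heat shock genes, in endothelial-like cells 0.33 and 1.12, and in macrophage-like cells -0.58 and 0.94. In 21 M B6 the *Hes1* log2 ratio was 1.67 in tenocyte-, 1.26 in epitenon-, 1.38 in endothelial- and 0.37 in macrophage-like cells. Of these classes, *Hes1* lay opposite to the immediate early median in macrophage-like cells alone. Over the settings run, its log2 ratio there ranged from -0.10, among male cells, to 0.78. *Jag1* in epitenon-like cells of 21 M B6 stood at -0.27, beside -0.28 over all genes. In T cell-like cells of 6 M DTR 14 of 15 immediate early genes were higher (median 0.65), while *Hes1* was lower at -1.13. In those of 21 M B6 13 of 15 were higher (median 0.35), and *Hes1* was higher at 1.14. The part of these genes' signals in the *Hes1* and *Jag1* values was not tested. Among female cells the tenocyte-like *Jag1* log2 ratios were 1.24 and 1.41, and among male cells 1.39 and 1.01. For *Hes1* these were 1.18 and 1.42 among female and 0.51 and 1.56 among male cells.

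**Figure D4:**
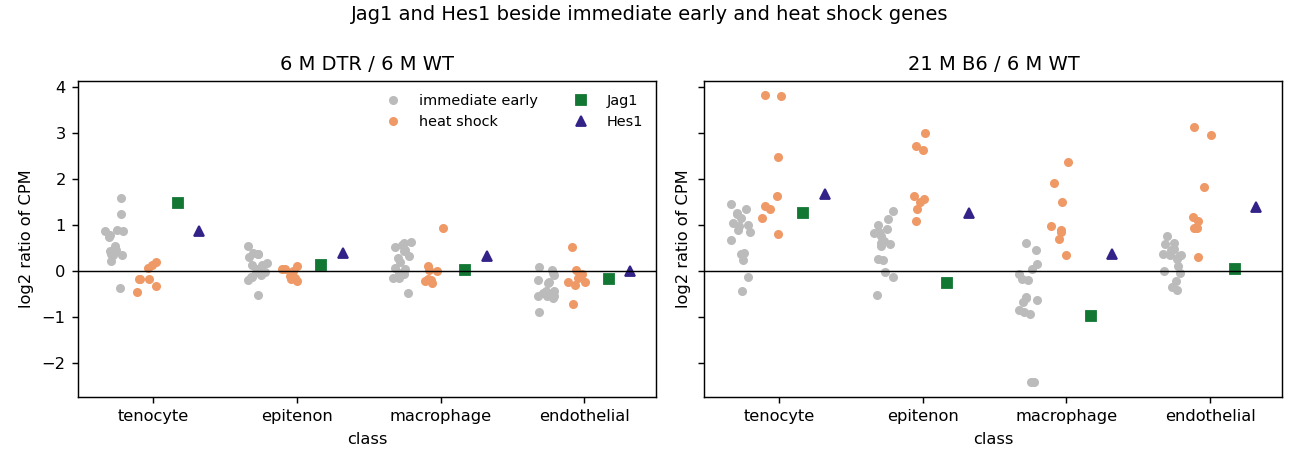
Log2 ratios of CPM to 6 M WT for 16 immediate early genes (gray), 8 heat shock genes (orange), *Jag1* (squares) and *Hes1* (triangles) in 4 classes, for 6 M DTR (left) and 21 M B6 (right). In tenocyte-like cells *Hes1* stands at 0.86 and 1.67 beside immediate early medians of 0.50 and 0.93.

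Within thinned tenocyte-like cells *Hes1* was found about as often with as without a *Jag1* UMI, in 24.1% against 24.2% of 6 M WT cells, 35.3% against 38.7% of 6 M DTR cells and 39.5% against 43.8% of 21 M B6 cells. With and without a *Notch2* UMI the shares were 23.3% and 24.5%, 37.6% and 38.8%, and 42.7% and 43.8%. Sparse counts limit such a comparison, since most cells that hold a transcript show no UMI. A ligand such as *Jag1* also acts on a neighboring cell, so a comparison within cells does not address signaling between them.

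The endothelial-like class held cells that carried at least 4 of 10 endothelial and at least 4 of 10 mural markers, 36 of 166 in 6 M WT, 21 of 153 in 6 M DTR and 84 of 183 in 21 M B6. These cells carried the mural members. *Notch3* stood at 315, 210 and 177 CPM in them but at 2.77, 4.73 and 4.32 CPM in the other endothelial-like cells, and *Heyl* at 24.1, 38.3 and 29.5 CPM against 0, 0 and 1.08 CPM. The mural gene *Rgs5* stood at 5159, 7191 and 6759 CPM against 160, 313 and 1023 CPM. It is 1 of the 10 mural markers that picked these cells, so a higher level in them follows from the choice. *Notch3* and *Heyl* are not among the markers, but both were highest in mural-like cells. Higher levels of them in cells picked by mural markers thus also go with the choice. The markers were counted without thinning, and in every library these cells held more UMIs on average than the other endothelial-like cells. Over all endothelial-like cells *Notch3* had a ratio of 0.39 (0.29 to 0.51) for 6 M DTR, a log2 ratio of -1.36, which turned to 0.77 on 6 and 3 UMIs when the cells carrying both marker sets were left out. The mural side was the same in mirror image. In mural-like cells all 8, 10 and 20 *Dll4* UMIs lay in the 6, 4 and 8 cells carrying both marker sets and 0 in the rest. *Dll4* was highest in endothelial-like cells, so this too goes with a choice by endothelial markers.

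**Figure D5:**
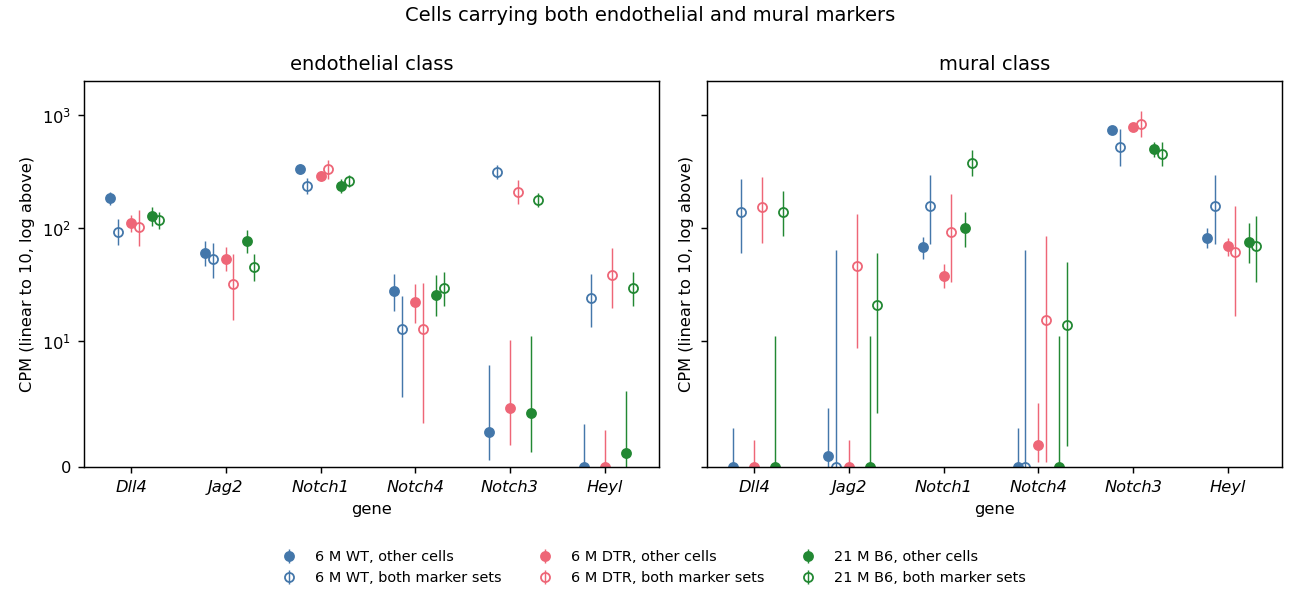
Levels in CPM (linear to 10, log above) of 6 genes in endothelial-like (left) and mural-like cells (right), for cells carrying at least 4 endothelial and 4 mural markers (open) and all other cells (filled), with exact 95% counting intervals. *Notch3* and *Heyl* of the endothelial-like class lie almost wholly in the open points, as does *Dll4* of the mural-like class.

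Without those cells, the members above 10 CPM in endothelial-like cells of every library were the ligands, *Notch1* and the targets *Hes1* and *Hey1*. *Notch2* stood at 12.9 (7.06 to 21.7), 5.51 and 5.40 CPM. *Dll4* stood at 184, 111 and 127 CPM, *Jag2* at 60.0, 53.6 and 76.6 CPM and *Dll1* at 61.8, 27.6 and 21.6 CPM. *Notch1* stood at 332, 288 and 236 CPM and *Hes1* at 125, 130 and 330 CPM. Over all endothelial-like cells the *Dll4* ratio was 0.73 (0.59 to 0.88) and 0.81 (0.68 to 0.97), that of *Dll1* 0.63 (0.43 to 0.93) and 0.51 (0.34 to 0.74), and that of *Hes1* 1.00 (0.83 to 1.20) and 2.61 (2.26 to 3.02). The *Dll4* log2 ratios were -0.46 and -0.30, beside medians of -0.05 and -0.20 over all genes in these cells. Most of these cells lay in a part called venous, with raised *Selp* (157, 149 and 114 cells), in which 6 venous but also 4 capillary markers were raised. It held nearly all such cells of both younger libraries, and thus cells with arterial markers too. *Selp* was found in 2 of 33, 2 of 31 and 2 of 30 cells of the arterial gate described below. A capillary part with raised *Gpihbp1* held 9, 4 and 69 cells and thus came nearly all from 21 M B6. In the venous part, with cells carrying both marker sets kept, the *Dll4* ratio of 21 M B6 was 0.90, at 139 CPM. That of *Hes1* was 2.34 (1.997 to 2.75). Without the cells carrying both marker sets, *Dll4* stood there at 187, 112 and 129 CPM and *Hes1* at 116, 128 and 308 CPM. Past 2-fold were 1 of 8 members in 6 M DTR (*Notch3*), where 4.73% of 7912 genes passed, and 1 of 9 in 21 M B6 (*Hes1*), where 9.76% of 7883 genes passed.

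The endothelial-like cells were also split by arterial markers, without regard to cluster. Among thinned cells pooled over the 3 libraries, without those carrying both marker sets, 94 had at least 2 of 6 arterial markers. *Hey1* was found in 20.2% (12.6 to 29.8) of these and in 4.35% (1.90 to 8.39) of the other 184 cells, and these intervals were apart. The intervals of *Notch1*, *Notch4*, *Hes1*, *Dll4*, *Jag1* and *Jag2* overlapped. *Notch1* was found in 77.7% (67.9 to 85.6) and 64.7% (57.3 to 71.6). Its unthinned level was higher in the gated cells of each library, at 529, 391 and 326 CPM against 244, 238 and 207 CPM. That of *Dll4* was so too, at 285, 147 and 191 CPM against 128, 101 and 97.7 CPM. *Notch4* was found in 16.0% (9.22 to 25.0) and 5.98% (3.02 to 10.4). *Hes1* was found in 37.2% (27.5 to 47.8) and 45.7% (38.3 to 53.1). *Dll4* was found in 43.6% (33.4 to 54.2) and 32.6% (25.9 to 39.9), and *Jag1* in 19.1% (11.8 to 28.6) and 14.1% (9.44 to 20.02). By library, *Hey1* was found in 5 of 33 against 2 of 58 cells of 6 M WT, 7 of 31 against 1 of 73 of 6 M DTR and 7 of 30 against 5 of 53 of 21 M B6, and the intervals were apart in 6 M DTR alone. The arterial connexins *Gja4* and *Gja5*, both part of the gate, were each found in 9 of 33 gated cells of 6 M WT. In 6 M DTR *Gja4* was found in 7 of 31 and *Gja5* in 0 of 31, and in 21 M B6 each was found in 1 of 30. The markers behind the gate thus differed between libraries.

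In mural-like cells the libraries differed in their parts, with 81, 152 and 13 pericyte-like against 67, 50 and 32 smooth muscle-like cells, so values are given by part. *Notch3* of 21 M B6 had a ratio of 0.64 (0.47 to 0.85) in pericyte-like and 0.71 (0.60 to 0.85) in smooth muscle-like cells. In 6 M DTR it was 1.27 (1.11 to 1.46) in smooth muscle-like cells and 0.96 in pericyte-like cells. *Hes1* stood at 488, 607 and 880 CPM in pericyte-like and 375, 519 and 603 CPM in smooth muscle-like cells, above 6 M WT in both parts and both libraries. *Jag1* had a ratio of 1.45 (1.04 to 2.01) in smooth muscle-like cells of 6 M DTR. *Hey1* over all mural-like cells of 6 M DTR had a ratio of 0.47 (0.31 to 0.72), which was 0.56 (0.31 to 0.97) in the smooth muscle-like and 0.69 (0.33 to 1.47) in the pericyte-like part. *Notch1* over all mural-like cells had a ratio of 0.56 (0.40 to 0.77) and 2.58 (1.90 to 3.499). Without the cells carrying both marker sets it stood at 67.8 (53.7 to 84.4), 38.0 (29.3 to 48.4) and 99.9 CPM (68.7 to 140). There the intervals of 6 M WT and 21 M B6 overlapped, and that of 6 M DTR lay below both. *Heyl* stood at 110, 67.7 and 63.8 CPM in smooth muscle-like cells, a ratio of 0.61 (0.39 to 0.94) and 0.58 (0.35 to 0.93), and at 59.1, 69.1 and 111 CPM in pericyte-like cells. *Nrarp* over all mural-like cells had a ratio of 0.47 (0.42 to 0.53) in 6 M DTR, but 0.92 in the pericyte-like part and 0.79 (0.69 to 0.89) in the smooth muscle-like part.

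Smaller classes gave wider intervals. *Hes1* in T cell-like cells stood at 53.9, 24.6 and 119 CPM, a ratio of 0.46 (0.33 to 0.63) and 2.20 (1.64 to 2.96). *Jag1* in nerve-like cells stood at 13.1, 36.0 and 19.3 CPM on 8, 24 and 9 UMIs. In muscle-like cells *Heyl* had a ratio of 0.38 (0.20 to 0.68) in 6 M DTR, on 18 and 36 UMIs. In 11, 14 and 4 lymphatic-like cells *Hes1* stood at 237, 1074 and 864 CPM.

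The other genes of the pathway were counted in the same way. Of 48 other genes, from ligands and targets to the nuclear complex, the proteases that cut the receptor, the glycosyltransferases that modify it, and endocytosis and ubiquitin enzymes, the comparisons of tenocyte-like cells counted 26 for the depleted and 24 for the aged library, of which 0 and 1 were past 2-fold, beside the 3.36% and 5.37% of all genes given above. That gene was *Dtx3l*, a ubiquitin ligase, at 9.85 CPM in the young control and 31.3 CPM in the aged library (ratio 3.17, 2.80 to 3.598). It was also past 2-fold in epitenon-like cells of 21 M B6, at 7.77 and 23.1 CPM (ratio 2.97, 2.54 to 3.495). In both classes *Dtx3l* lay below 10 CPM in 6 M WT and was counted only through 21 M B6. In macrophage-like cells of 21 M B6 *Spen*, a corepressor that binds RBPJ, stood at 34.6 and 77.3 CPM (ratio 2.24, 1.96 to 2.55). In endothelial-like cells 29 genes were counted in each comparison and 1 passed 2-fold in each, beside 4.73% and 9.76% of all genes. With so few genes counted, these shares do not set the pathway apart from all genes. The ubiquitin ligase *Neurl3* stood at 300.0, 202 and 121 CPM (ratio 0.67, 0.58 to 0.78, and 0.40, 0.34 to 0.47, or 0.54 in the venous part), and *Dtx2* had a ratio of 0.31 (0.12 to 0.69) in 6 M DTR on 8 and 28 UMIs. In mural-like cells 8.1% of 8409 genes passed 2-fold in 6 M DTR and 23.3% of 8190 genes in 21 M B6, which had 45 such cells. There, in the aged library, *Cir1*, a corepressor that binds RBPJ, had a ratio of 0.42 (0.19 to 0.83) on 10 and 62 UMIs. The receptor-cutting proteases *Adam10* and *Adam17* had ratios of 0.45 (0.15 to 1.07) and 0.24 (0.027 to 0.96) there, and the glycosyltransferase *Lfng* one of 3.04 (0.88 to 10.9), each on 7 UMIs or fewer in the aged library. In those of 6 M DTR the Deltex gene *Dtx4* had a ratio of 2.93 (1.07 to 9.93) on 21 and 5 UMIs. In mural-like cells *Dtx4* and *Lfng* lay below 10 CPM in 6 M WT, as *Dtx2* did in endothelial-like cells of 6 M DTR. Each was counted only through the other library of its comparison, where it was higher. The median log2 ratio over the other pathway genes counted in tenocyte-like cells was 0.16 for the depleted and -0.26 for the aged library, beside 0.02 and -0.25 over all genes. In the 8 classes *Dll3* reached at most 1.17 CPM and *Hes5* at most 0.474 CPM.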

How the data were processed

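Cells of 3 pooled FDL tendon libraries were profiled by droplet scRNAseq, and the authors deposited raw UMI counts per gene and cell barcode. The file headers name Cell Ranger 6.0.1 and the submitters' processing notes Cell Ranger 2.1.1. The genome build is not given in the sources used here. Barcodes were kept at 1000 to 5000 genes and up to 10% mitochondrial UMIs. Seurat 5.3.0 (R 4.3.3) integrated the libraries on 1991 of 2000 variable genes, the other 9 being Notch pathway genes left out so that they would not shape the clusters, and clustered on 20 dimensions at resolution 0.1, with the vascular cells again at 0.3. Clusters were named where markers were raised, and the mural parts by *Kcnj8* or *Abcc9* among the 10 leading genes. Scrublet (scanpy 1.11.5) called 2, 7 and 1 cells and has therefore not worked, so doublets were kept. UMIs were summed per class and library in Python 3.11.15 and given as CPM with exact Poisson 95% intervals, shares with exact Clopper-Pearson intervals and ratios with exact intervals from both counts (scipy 1.17.1). These cover counting error only. Total depth was 148149903, 123918145 and 92707026 UMIs. A level of 0 allows up to 3 UMIs. The 2-fold count took genes of at least 10 CPM in either library. The ratio computation was tested on simulated data. edgeR 4.0.16 gave the TMM scaling used as an alternative. The other alternatives were a mitochondrial limit of 5%, doublet calls left out, female or male cells, cells gated on markers, no integration, resolution 0.3, a minimum of 5 CPM and thinning to 2000 UMIs. Leaving out the cells with both vascular marker sets and the 6% highest Scrublet scores was chosen after seeing the data. All 10 members are named, with the 3 genes of the most alike profile for each (at least 20 CPM in some profile) and, of each pathway list, at most 4 genes per class of at least 10 CPM past 2-fold. *Rgs5*, *Gja4*, *Gja5*, *Notch4*, *Dll3*, *Hes5*, *Dtx1* and *Nrarp* of the mural parts, and *Lfng* of T cell-like cells, were named after their values were seen. The members and lists were chosen with earlier results of these data known. Promoter sequences come from RefSeq (GRCm38.p6).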

Additional observations from a re-analysis of the deposited data

Results flagged for a closer look

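For 3 members the ratio of 21 M B6 to 6 M WT lay above 1 in a class and below 1 in another, with both counting intervals apart from 1 and the ratios at least 2-fold apart. This was asked of tenocyte-, epitenon-, endothelial-, mural- and macrophage-like cells in which the gene reached 10 CPM in either library, and for each gene the highest and lowest such class are given. With 1 library per group, the difference between the classes was not tested. *Jag1* had a log2 ratio of 1.26 in tenocyte-like and -0.98 in macrophage-like cells, a difference of 2.24. *Dll4* had a log2 ratio of 2.70 in mural-like and -0.30 in endothelial-like cells, a difference of 3.005, and all 8 and 20 mural *Dll4* UMIs of these libraries lay in cells carrying both vascular marker sets. In 6 M WT, *Jag1* of tenocyte-like cells (9.09 CPM) and *Dll4* of mural-like cells (6.46 CPM) lay below 10 CPM. Both were thus counted there only through 21 M B6, where they were higher, and could not have been counted as lower. *Notch1* had a log2 ratio of 1.37 in mural-like and -0.25 in endothelial-like cells, a difference of 1.61. Without the cells carrying both marker sets the mural level was 67.8 (53.7 to 84.4) and 99.9 CPM (68.7 to 140), and these intervals overlapped. The median log2 ratio of 21 M B6 over all genes was -0.20 in endothelial-like and -0.29 in mural-like cells. The endothelial-like values of *Dll4* and *Notch1* lay near that median. The *Notch1* ratio was also above 1 in macrophage-like cells, at 1.41 (1.26 to 1.58).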

How the results depend on the processing

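No paired analysis was possible because each group has 1 library. For the same reason no library could be left out. The *Jag1* log2 ratio in tenocyte-like cells ranged from 1.24 to 1.47 for 6 M DTR and from 1.01 to 1.46 for 21 M B6 over the settings run, and that of *Hes1* from 0.51 to 1.18 and from 1.42 to 1.87. Among male cells the *Notch2* log2 ratio of 21 M B6 turned to -0.27 in tenocyte-like and -0.0029 in epitenon-like cells, that of *Hes1* in macrophage-like cells to -0.38 for 6 M DTR and -0.10 for 21 M B6, that of *Hes1* in mural-like cells of 6 M DTR to -0.0417, and that of *Dll4* in endothelial-like cells of 21 M B6 to 0.31. TMM scaling turned *Jag1* in epitenon-like cells of 21 M B6 to 0.0308. *Notch3* in endothelial-like cells of 6 M DTR turned to 0.77 without the cells carrying both marker sets and to 0.84 with cells gated on markers. The cause of these changes was not tested. The number of members past 2-fold in tenocyte-like cells of 6 M DTR was 2 among female cells in place of 1. In macrophage-like cells of 21 M B6 it was 1 among female cells and 1 without the highest 6% of Scrublet scores, in place of 0. In endothelial-like cells of 6 M DTR, in place of 1, it was 2 without the cells carrying both marker sets, 3 among female cells, 2 among male cells, and 0 with cells gated on markers, with no integration and at resolution 0.3. In endothelial-like cells of 21 M B6, in place of 1, it was 3 at a mitochondrial limit of 5%, 2 without the highest 6% of Scrublet scores, 3 without the cells carrying both marker sets, 3 among female cells, 3 among male cells, 2 with cells gated on markers and 2 with TMM scaling. *Hey1* was highest in endothelial-like, not mural-like, cells of all 3 libraries when cells were gated on markers. In 6 M DTR this was so too with no integration and at resolution 0.3. *Notch2* of 21 M B6 was highest in macrophage-like, not tenocyte-like, cells when cells were gated on markers and at resolution 0.3. Mural-like levels were lower when cells were gated on markers. *Notch3* stood at 372, 463 and 229 CPM, *Jag1* at 72.3, 117 and 82.3 CPM and *Heyl* at 41.0, 40.3 and 34.2 CPM. Thinning to 2000 UMIs in place of 5000 moved all 18 shares compared. Endothelial-like and mural-like classes of 45 to 202 cells limit the precision there.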

Other observations

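Among the other pathway genes, *Dtx1*, a ubiquitin ligase of the Deltex family, stood at 311, 216 and 307 CPM in the 11, 14 and 4 lymphatic-like cells (the young control, depleted and aged libraries in turn), on 38, 26 and 16 UMIs, and reached at most 2.11 CPM in any of the 8 classes. *Lfng*, a glycosyltransferase that modifies Notch receptors, stood at 65.6, 65.4 and 31.8 CPM in T cell-like cells, on 101, 202 and 30 UMIs.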
